A study of Homo sapiens with 8 samples.

Results

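LINC symbols were given to long noncoding RNA genes annotated between protein-coding genes, with a running number where no function had named them. Long noncoding RNAs are transcribed mostly by RNA polymerase II, many are spliced and polyadenylated, and some act in the nucleus on nearby genes while others bind proteins or microRNAs in the cytoplasm. As a class they are made at low levels and in few cell types, and a minority were later found to encode small proteins. The LINC genes were taken as every gene of the table whose symbol is LINC followed by a number and does not end in -AS1. There were 171 of them among 14526 genes, and RefSeq (GRCh38.p14) now lists 2312 LINC symbols. How many of the 2312 were in the annotation used for counting is not known here, so those without a row need not be silent. Under current RefSeq names, 128 of the 171 keep the same symbol and 43 were found through a synonym. RefSeq now classes 157 of them as lncRNA, 13 as protein-coding and 1 as a transcribed pseudogene. The span of 21 of the 171 overlaps a protein-coding gene in RefSeq, and 4 now carry a symbol that ends in -AS1. They lie on 23 chromosomes.

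RNA was sequenced from 4 control replicates and 4 replicates kept in 10 mM sodium benzoate (SB) for 24 h, all grown in the same medium with serum. SB is a food preservative, and the study used it to raise benzoylation of histone lysines. No genetic change is given for either group, the agent given to the controls in place of SB is not given in the sources used here, and each group is 1 cell line in culture. The labels name the cells HepG2, a line from a human liver carcinoma. Of 20 hepatocyte markers, 18 have no row in the table, ALB, APOA1, AFP and TTR among them. Of 7 neuronal markers, 4 have a row (NEFL, NEFM, INA and SYP), and their sum was 87.0 to 97.3 RPKM in the controls and 59.8 to 61.6 RPKM in SB-treated cells. The defining markers thus go against the label, and the cells are called here only the cells labelled HepG2. The neuronal sum was lower after SB treatment, and its part in the LINC values was not tested. In bulk RNA, fewer cells of a type and less RNA per cell cannot be told apart.

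Values are RPKM, reads scaled to the counted length of the gene and to the size of the library, so they can be set side by side between genes. A gene needed more than 1 CPM (reads scaled to library size alone) in at least 2 of the 8 libraries to have a row, so LINC genes that are silent in these cells are not among the 171. A gene low in 1 group could pass through the other group alone, and was then kept because it was high there. The counts of LINC genes below include such genes, and how many there are was not counted. Reads on the genes of the table numbered 37010896 to 44518459 in the control group and 37182456 to 44903216 in the SB-treated group. Averaged over the 8 libraries, the LINC genes had from 24.6 to 13404.5 reads, with a median of 141. Control replicate 1 stood apart from the other libraries. It was the highest or the lowest of the controls for 113 of the 171 LINC genes, against 73 to 83 for the other controls. The chi-square of LINC reads per degree of freedom was 6.06 to 7.24 between it and the other controls, and 0.994 to 1.76 between the other pairs of the same group. Over all genes those values were 33.4 to 38.5 and 1.52 to 3.81, so no pair of libraries was the same within sampling noise. Counts are therefore also given without that library.

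LINC genes rose more often than they fell after SB treatment. With limma on log2(RPKM + 1), adjusted over all 14526 genes, 72 LINC genes were higher in SB-treated cells, 30 were lower and 69 passed no threshold at an adjusted p of 0.05. The share of all genes called was 33.0% higher and 32.6% lower (65.6% in all), against 42.1% and 17.5% of the LINC genes. With voom on the reads recovered from the RPKM values, 66 LINC genes were higher and 29 lower, where 33.5% and 32.8% of all genes were. Without control replicate 1, 83 LINC genes were higher and 31 lower, and the shares of all genes were 37.6% and 37.9%. The division between directions also moved with the scaling of the libraries. Of the LINC genes called, 70.6% were higher with the TMM factors and 81.7% without them (94 higher and 21 lower), and over all genes these shares were 50.2% and 65.1%. Leaving the factors out moved the median log2 ratio of all genes from 0.0077 to 0.11.

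The changes were mostly small. The median log2 fold change of the 171 LINC genes was 0.09, with quartiles at -0.04 and 0.26, and the median over all genes was 0.0045. Without control replicate 1 the LINC median was 0.0942. The largest rise was 1.05 and the largest fall was -0.77. At a log2 fold change of at least 0.5, 17 LINC genes were higher and 4 were lower, where 5.12% and 5.45% of all genes passed the same rule. This count depends on the scale, because adding 1 RPKM shrinks the change of genes near or under 1 RPKM. With voom 42 were higher and 10 were lower by at least 0.5, where 12.5% and 8.14% of all genes passed. The 4 SB-treated values all lay above the 4 control values for 70 LINC genes and all below them for 26, against 31.0% and 30.5% of all genes.

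**Figure D1:**
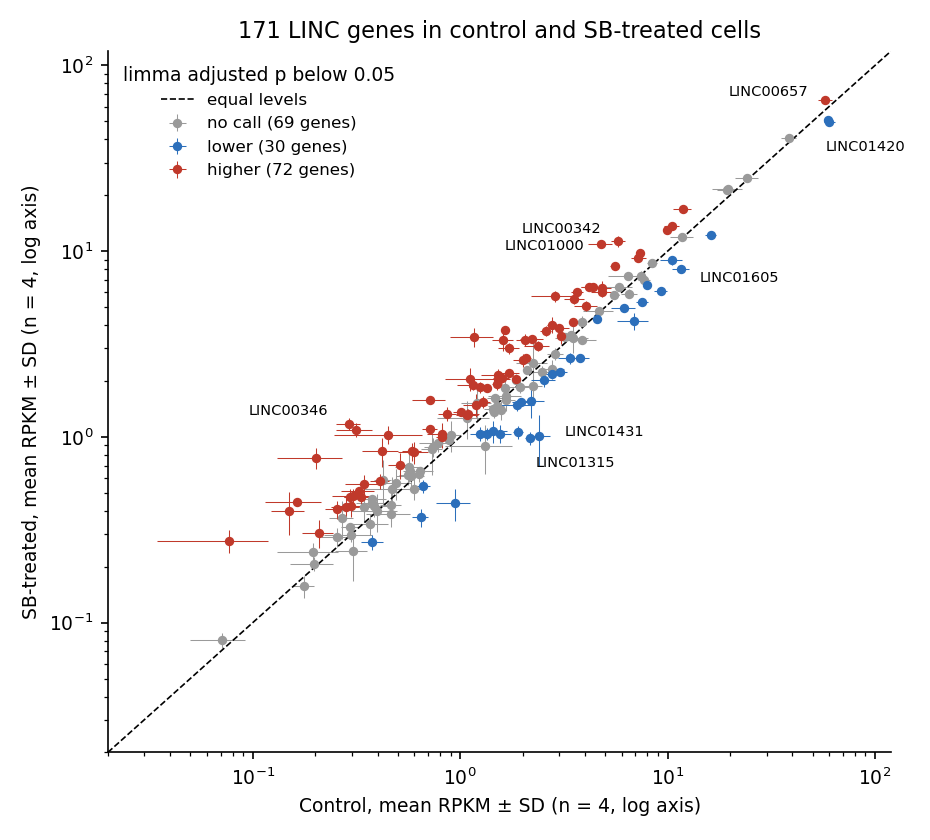
Mean RPKM of each of the 171 LINC genes in control (horizontal) and SB-treated cells (vertical), both on log axes, with bars for the SD over 4 replicates. Red points are the 72 genes higher and blue points the 30 genes lower at a limma adjusted p below 0.05, grey points the other 69, and the dashed line marks equal levels, near which most of the genes lie.

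LINC RNAs were a small part of the RNA, and that part grew. They took 0.164% to 0.169% of the reads in the control libraries and 0.209% to 0.213% in the SB-treated ones, without overlap between the groups. Summed over the 171 genes, the level was 680 to 692 RPKM in the controls and 722 to 734 RPKM in SB-treated cells. The single gene LINC00657 held 18.0% of the LINC reads in the controls and 17.2% in SB-treated cells. LINC01000 went from 2.85% to 5.51% of the LINC reads. The spread between replicates was larger in the controls, control replicate 1 included, with a median coefficient of variation of 11.8% over the LINC genes, against 7.51% in SB-treated cells. It was not computed without that library. Between the other controls the chi-square of LINC reads per degree of freedom was 1.46 to 1.76, close to the 0.994 to 1.66 between SB-treated libraries.

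The LINC genes differ from most genes in level and length. Among LINC genes the share called lower grew with level and the share called higher did not, while both shares differed with length. The median level of the LINC genes was 1.63 RPKM, from 0.0758 to 61.5 RPKM, and the median over all genes was 8.51 RPKM. Among LINC genes below 1 RPKM, 24 of 60 were higher and 4 lower. All genes at that level gave 40.3% higher and 12.8% lower. Between 1 and 5 RPKM, 35 of 76 LINC genes were higher and 16 lower, where all genes gave 46.2% and 19.7%. At 5 RPKM or more, 13 of 35 were higher and 10 lower, where all genes gave 26.3% and 41.9%. Below 5 RPKM the share of LINC genes called higher was thus close to that of all genes of the same level.

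Counted length divided them as well. At 2351 bases or less, which is the median of the LINC genes, 26 of 86 were higher and 20 lower, and 20.2% and 46.7% of all genes of that length were. Above it, 46 of 85 LINC genes were higher and 10 lower, where all genes gave 38.4% and 26.6%. Shorter LINC genes were also the more abundant ones, with a median of 2.29 RPKM against 0.925 RPKM for the longer ones. Of 18 LINC genes with 1 exon in the annotation, 10 were higher and 0 lower by limma (0 lower at an unadjusted p below 0.05, and 0 by voom). Of 141 with 2 or more exons, 56 were higher and 28 lower. Over all LINC genes 42.1% were higher and 17.5% lower, and over all genes 33.0% and 32.6%. Calls of all genes with 1 exon were not counted, so the 0 cannot be set beside a share of such genes.

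**Figure D2:**
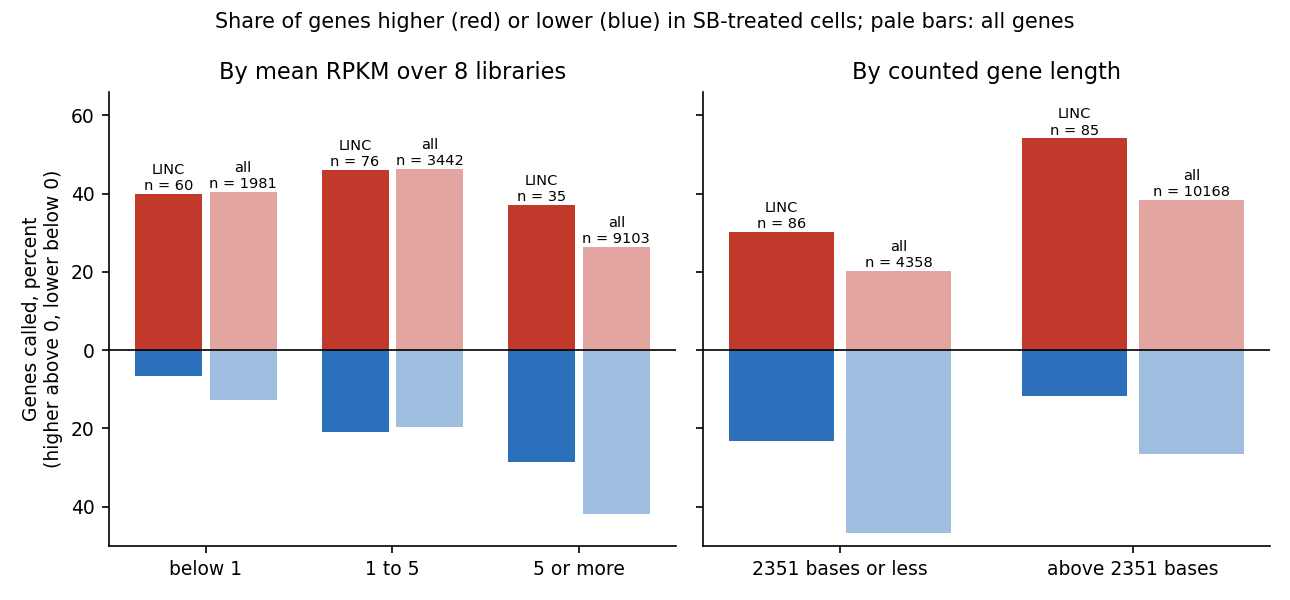
Percent of genes higher (red, above 0) and lower (blue, below 0) in SB-treated cells at a limma adjusted p below 0.05, by mean RPKM over the 8 libraries and by counted length. Full bars are LINC genes and pale bars all genes of the same range, with the number of genes over each bar, and the red bars of LINC genes and of all genes are close below 5 RPKM.

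The 8 LINC RNAs with the largest rises were 1.96-fold to 4.06-fold higher in SB-treated cells. They and the 8 with the largest falls were named among called genes whose groups did not overlap, and in RefSeq the span of none of these 16 overlaps a protein-coding gene. LINC01000 (chr7:128641241-128660998, strand not given here) was at 3.83, 5.01, 5.11 and 5.17 RPKM in control replicates 1 to 4 and at 10.7, 11.2, 11.2 and 10.6 RPKM in SB-treated replicates 1 to 4. All SB-treated values lay above all control values, and control replicate 1 was the lowest. The mean rose 2.29-fold (log2 fold change 1.05, SE 0.07, limma adjusted p = 2.64e-06), and without control replicate 1 the log2 fold change was 0.97 (limma adjusted p = 2.66e-08). LINC01411 (chr5:174336354-174527139, plus strand), whose nearest coding gene is the homeobox gene MSX2, was at 0.806, 1.15, 1.25 and 1.45 RPKM in the controls and at 3.33, 3.47, 3.96 and 3.03 RPKM in SB-treated cells. Its groups lay apart, with a rise of 2.96-fold (log2 fold change 1.04, SE 0.09, limma adjusted p = 1.01e-05).

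LINC00342 (chr2:95807052-95826981, minus strand) was at 5.81, 5.46, 5.48 and 6.41 RPKM in the controls and 12.01, 11.1, 11.8 and 10.4 RPKM in SB-treated cells. This was a 1.96-fold rise with no overlap (log2 fold change 0.86, SE 0.06, limma adjusted p = 2.18e-06). LINC01004 (chr7:104981747-104991165, minus strand), which lies 23040 bases before the chromatin regulator gene KMT2E on the other strand, had close replicates in both groups. It was at 1.64, 1.69, 1.60 and 1.68 RPKM in the controls and 3.97, 3.78, 3.70 and 3.59 RPKM in SB-treated cells. The SB-treated values were again all higher, by 2.28-fold in the mean (log2 fold change 0.84, SE 0.04, limma adjusted p = 2.02e-07). LINC00638, now named VESTAR (chr14:104821201-104823718, plus strand), was more variable. It was at 1.99, 2.94, 3.66 and 2.92 RPKM in the controls and 5.22, 5.73, 6.24 and 5.69 RPKM in SB-treated cells. The lowest SB-treated value was still above the highest control value, and the mean rose 1.99-fold (log2 fold change 0.81, SE 0.11, limma adjusted p = 1.86e-04). Without control replicate 1, which was its lowest control, its log2 fold change was 0.69 (limma adjusted p = 1.44e-05).

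LINC00346, now PRECSIT, a transcript named for its regulation by p53 and its activation of STAT3, lies on chromosome 13 (chr13:110863987-110870308, minus strand) as a single exon. It was at 0.268, 0.249, 0.310 and 0.333 RPKM in the controls and 1.06, 1.26, 1.21 and 1.18 RPKM in SB-treated cells. The gap between the groups was wide, with a 4.06-fold higher mean (log2 fold change 0.75, SE 0.04, limma adjusted p = 6.65e-07). Its control level is far under 1 RPKM, where log2(RPKM + 1) understates a change, and voom on the recovered reads (72.5 reads on average in the controls and 311 in SB-treated cells) gave a log2 fold change of 2.02. LINC01126 (chr2:43227211-43228855, plus strand), a single-exon transcript beside ZFP36L2, was at 1.57, 1.85, 1.60 and 1.40 RPKM in the controls and 3.12, 3.90, 3.43 and 2.91 RPKM in SB-treated cells. Its groups did not overlap, and it rose 2.08-fold (log2 fold change 0.73, SE 0.07, limma adjusted p = 2.28e-05). LINC00202-1, now FAM238C (chr10:26931206-26942001, minus strand), was at 0.221, 0.351, 0.348 and 0.338 RPKM in the controls and 1.11, 0.952, 1.15 and 1.15 RPKM in SB-treated cells. It rose 3.47-fold (log2 fold change 0.67, SE 0.05, limma adjusted p = 2.88e-06), and 1.82 on the log2 scale of voom. Its symbol marks it as 1 of several like copies, between which reads may have been divided, so its level is uncertain.

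The 8 LINC RNAs with the largest falls were 1.41-fold to 2.39-fold higher in the controls. LINC01431 (chr20:23356594-23358127, minus strand), beside the mRNA export cofactor gene NXT1, was at 2.84, 2.20, 2.38 and 2.23 RPKM in control replicates 1 to 4 and at 0.573, 1.30, 1.08 and 1.08 RPKM in SB-treated replicates 1 to 4. All SB-treated values were lower, and the first of them was far under the other 3. The control mean was 2.39-fold the SB-treated mean (log2 fold change -0.77, SE 0.11, limma adjusted p = 1.86e-04). This gene is shown by few reads, 61 per control library and 27 per SB-treated library on average. LINC01315 (chr22:42364400-42369208, minus strand) was at 2.22, 2.26, 2.17 and 1.99 RPKM in the controls and at 1.01, 0.873, 1.05 and 1.01 RPKM in SB-treated cells. Its replicates were close and its groups apart, 2.19-fold in the mean (log2 fold change -0.67, SE 0.04, limma adjusted p = 1.44e-06). LINC01604 (chr8:143280155-143281700, minus strand) was at 5.47, 7.39, 8.18 and 6.54 RPKM in the controls and 4.75, 3.99, 3.69 and 4.41 RPKM in SB-treated cells. The lowest control value was only a little above the highest SB-treated value (log2 fold change -0.59, SE 0.10, limma adjusted p = 7.40e-04).

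LINC00888, now SNHG33 (chr3:183447608-183456013, plus strand), is named as a host of small nucleolar RNA. It was at 10.3, 8.92, 9.04 and 8.84 RPKM in the controls and 5.90, 6.47, 5.81 and 6.19 RPKM in SB-treated cells. The groups lay apart by 1.52-fold in the mean (log2 fold change -0.53, SE 0.05, limma adjusted p = 1.86e-05), and without control replicate 1, its highest control, the log2 fold change was -0.49 (limma adjusted p = 1.90e-06). LINC00173 (chr12:116533422-116536513, plus strand) was at 1.89, 1.80, 1.86 and 2.04 RPKM in the controls and 1.14, 1.004, 1.13 and 0.976 RPKM in SB-treated cells. It had close replicates in both groups and no overlap (log2 fold change -0.49, SE 0.04, limma adjusted p = 8.45e-06). LINC01605 (chr8:37403516-37599839, minus strand) was at 10.01, 12.7, 11.96 and 11.8 RPKM in the controls and 7.95, 8.004, 7.88 and 8.21 RPKM in SB-treated cells. Its SB-treated values lay within a narrow range under all of the controls (log2 fold change -0.48, SE 0.06, limma adjusted p = 9.34e-05).

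LINC01537 (chr11:72570656-72573222, plus strand), beside the phosphodiesterase gene PDE2A, was at 1.15, 0.965, 0.721 and 0.930 RPKM in the controls and 0.330, 0.524, 0.415 and 0.483 RPKM in SB-treated cells. It was 2.15-fold higher in the controls without overlap (log2 fold change -0.43, SE 0.07, limma adjusted p = 4.11e-04), and voom gave a log2 fold change of -1.10. LINC00491 (chr5:102608492-102671464, minus strand) was at 7.71, 7.24, 7.04 and 8.22 RPKM in the controls and 5.39, 5.24, 5.30 and 5.46 RPKM in SB-treated cells. Its groups did not overlap (log2 fold change -0.43, SE 0.05, limma adjusted p = 3.07e-05).

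**Figure D3:**
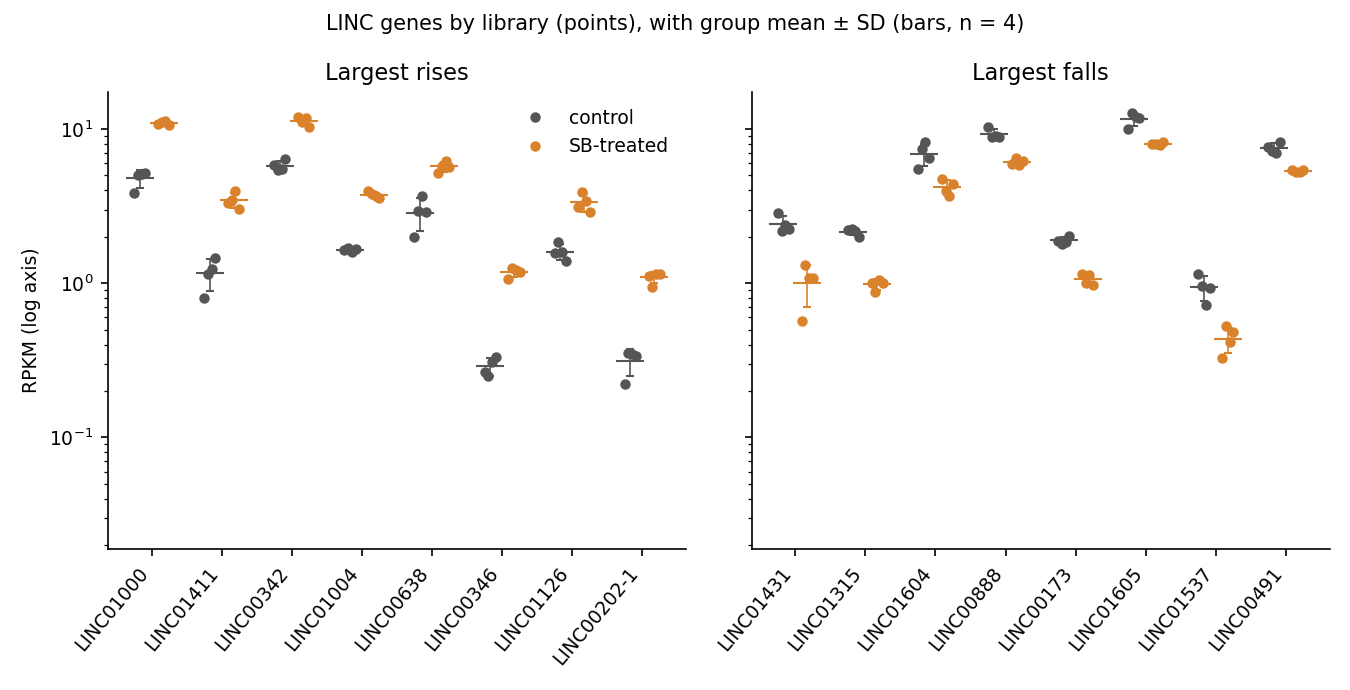
RPKM on a log axis in each library for the 8 LINC genes with the largest rises (left) and the 8 with the largest falls (right), control in grey and SB-treated in orange, with bars for the mean and SD over 4 replicates. All 16 were chosen among called genes whose groups do not overlap, so the separation of orange from grey follows from that choice, and the panels show the size of each gap and the spread within it.

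The start regions of these genes are shown so that the rises and falls can be read beside the sequence, for those 3 rises and 3 falls with the largest changes that have a promoter window here. RefSeq (GRCh38.p14) gave windows from 250 bases before to 50 bases after the start for 123 of the 171 LINC genes, 144 windows in all, and these do not include LINC01000, LINC00342, LINC01004, LINC00491, LINC01604 or LINC01605 among the 16. Capitals mark matches, on either strand, to 8 motifs. These were the TATA box TATAAA, the E-box CACGTG, the hypoxia-factor core ACGTG (which lies within the E-box), the AP-1 site TGACTCA, the CREB site TGACGTCA, the TEAD core CATTCC, the CCAAT box (named by its letters) and the GC box GGGCGG. The windows are LINC01411 at chr5:174336104-174336403 on the plus strand, LINC00638 at chr14:104820951-104821250 on the plus strand, LINC00346 at chr13:110870259-110870558 on the minus strand, LINC01431 at chr20:23358078-23358377 on the minus strand, LINC01315 at chr22:42369159-42369458 on the minus strand and LINC00888 at chr3:183447358-183447657 on the plus strand, each printed 5′ to 3′ along the gene's strand.
LINC01411: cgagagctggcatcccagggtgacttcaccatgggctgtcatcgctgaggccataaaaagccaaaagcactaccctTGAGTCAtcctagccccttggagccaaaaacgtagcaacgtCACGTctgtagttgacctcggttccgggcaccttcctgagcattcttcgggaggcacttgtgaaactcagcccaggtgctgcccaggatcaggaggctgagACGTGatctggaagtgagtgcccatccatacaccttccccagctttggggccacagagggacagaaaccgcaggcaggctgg
LINC00638: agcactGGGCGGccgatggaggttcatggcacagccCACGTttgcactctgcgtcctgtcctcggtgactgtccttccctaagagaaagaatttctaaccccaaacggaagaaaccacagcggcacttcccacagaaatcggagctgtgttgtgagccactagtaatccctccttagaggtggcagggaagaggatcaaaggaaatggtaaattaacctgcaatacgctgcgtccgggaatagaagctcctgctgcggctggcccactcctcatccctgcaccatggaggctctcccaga
LINC00346: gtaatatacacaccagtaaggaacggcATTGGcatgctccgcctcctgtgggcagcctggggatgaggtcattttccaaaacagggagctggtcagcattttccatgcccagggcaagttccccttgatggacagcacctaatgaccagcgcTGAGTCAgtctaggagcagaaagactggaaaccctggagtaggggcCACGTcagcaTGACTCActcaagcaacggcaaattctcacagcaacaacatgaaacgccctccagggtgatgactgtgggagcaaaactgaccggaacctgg
LINC01431: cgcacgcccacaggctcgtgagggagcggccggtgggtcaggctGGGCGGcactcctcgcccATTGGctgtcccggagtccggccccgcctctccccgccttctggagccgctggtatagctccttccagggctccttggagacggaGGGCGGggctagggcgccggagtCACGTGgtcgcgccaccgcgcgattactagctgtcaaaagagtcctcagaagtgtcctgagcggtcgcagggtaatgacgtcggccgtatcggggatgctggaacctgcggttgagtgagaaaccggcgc
LINC01315: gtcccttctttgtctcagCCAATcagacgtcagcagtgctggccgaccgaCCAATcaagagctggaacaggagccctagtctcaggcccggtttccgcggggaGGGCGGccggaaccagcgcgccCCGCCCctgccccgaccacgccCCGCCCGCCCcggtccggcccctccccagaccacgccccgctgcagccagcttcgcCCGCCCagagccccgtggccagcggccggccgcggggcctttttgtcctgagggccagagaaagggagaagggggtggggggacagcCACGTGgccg
LINC00888: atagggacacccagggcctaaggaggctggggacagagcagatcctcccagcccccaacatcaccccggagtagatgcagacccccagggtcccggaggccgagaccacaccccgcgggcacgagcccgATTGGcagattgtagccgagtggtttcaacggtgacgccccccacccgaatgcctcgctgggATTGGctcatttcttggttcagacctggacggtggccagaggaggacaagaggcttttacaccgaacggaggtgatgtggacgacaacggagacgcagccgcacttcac

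In these windows, TGACTCA was found once in LINC01411 and at a pair of places in LINC00346. Over all 35116 promoter windows of the reference it was found in 4.95%, and over the LINC windows in 6.25%. CACGTG was found in LINC01431 and LINC01315, both of which fell, and also in the window of LINC01126, which rose. It was in 14.04% of the windows of LINC genes called higher, 19.4% of those called lower and 5.36% of those without a call, and in 7.26% of all windows. The letters CATTCC were in 3.51% of the windows of LINC genes called higher, 16.1% of those called lower, 19.6% of those without a call and 14.03% of all windows. These shares count windows, of which a gene can have more than 1, and they rest on few of them. There were 57 windows of LINC genes called higher, 31 of those called lower and 56 of those without a call. In that order CACGTG was in 8, 6 and 3 windows, and CATTCC in 2, 5 and 11. LINC00888 held CCAAT on the other strand at a pair of places, and CCAAT was in 34.6% of all windows. The other motifs were found in 11.5% (TATAAA), 21.4% (ACGTG), 1.85% (TGACGTCA) and 45.0% (GGGCGG) of all windows, and in 10.4%, 29.2%, 1.39% and 48.6% of the LINC windows. CpG content was like that of other genes, with a median of 14 CpG in the 144 LINC windows and 14 in all windows. It was 14 for the LINC genes called higher and 18 for those called lower. A match is a run of letters and was not tested as a bound site.

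Of the 8 most abundant LINC RNAs, 2 rose, 2 fell and 4 had no call, where 33.0% of all genes were called higher and 32.6% lower. LINC00657 is NORAD, a cytoplasmic RNA known for its part in genome stability. It lies at chr20:36045618-36050960, minus strand, as a single exon, and it was at 64.6, 55.8, 56.3 and 53.8 RPKM in control replicates 1 to 4 and at 66.9, 64.5, 64.2 and 65.8 RPKM in SB-treated replicates 1 to 4. It was called higher (log2 fold change 0.18, SE 0.05, limma adjusted p = 0.0147), although control replicate 1 lay above 2 of the SB-treated values, and the exact permutation test gave p = 0.0857. Without that library the log2 fold change was 0.24 (limma adjusted p = 4.66e-05). LINC00294 (chr11:33076150-33079454, plus strand) was the only one of the 8 most abundant whose change neared 0.5. It was at 10.1, 12.1, 12.8 and 12.3 RPKM in the controls and 16.9, 16.9, 17.1 and 16.9 RPKM in SB-treated cells, a rise of 1.43-fold with no overlap (log2 fold change 0.49, SE 0.06, limma adjusted p = 9.46e-05).

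LINC00467, LINC00504 and LINC00506 were among the 8 most abundant and passed no threshold. LINC00467 was at 28.6, 21.3, 22.9 and 24.1 RPKM in the controls and 24.7, 23.1, 25.5 and 25.3 RPKM in SB-treated cells, with overlap (log2 fold change 0.03, SE 0.08, limma adjusted p = 0.756). LINC00504 was at 24.3, 17.4, 18.1 and 18.2 RPKM in the controls and 23.1, 20.8, 21.4 and 20.9 RPKM in SB-treated cells (log2 fold change 0.15, SE 0.09, limma adjusted p = 0.191). LINC00506 was at 22.2, 18.2, 18.0 and 18.9 RPKM in the controls and 22.3, 20.5, 21.3 and 21.2 RPKM in SB-treated cells (log2 fold change 0.14, SE 0.06, limma adjusted p = 0.0764). In all of these control replicate 1 was the highest control and lay within or above the SB-treated range. Without it LINC00504 was called higher at 0.25 (limma adjusted p = 2.83e-04) and LINC00506 at 0.20 (limma adjusted p = 3.82e-04), while LINC00467 stayed without a call at 0.11 (limma adjusted p = 0.0567).

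Several LINC symbols were later found to carry small open reading frames. Of 9 such genes listed, 4 have a row, of which 2 fell, 0 rose and 2 had no call by limma (0 rose at an unadjusted p below 0.05, and 0 by voom). Among all genes 33.0% were called higher and 32.6% lower, and 4 genes are too few for a comparison with those shares. LINC01420 is NBDY, which encodes a microprotein of the mRNA decapping complex in P-bodies. It was at 54.9, 63.2, 61.5 and 61.6 RPKM in the controls and 49.0, 49.8, 49.0 and 51.3 RPKM in SB-treated cells, lower in all SB-treated replicates (log2 fold change -0.27, SE 0.05, limma adjusted p = 7.18e-04). LINC00493 is SMIM26, which encodes a small mitochondrial protein, and was at 55.4, 61.9, 60.02 and 59.98 RPKM in the controls and 52.5, 48.2, 53.4 and 49.8 RPKM in SB-treated cells. It too fell without overlap (log2 fold change -0.21, SE 0.05, limma adjusted p = 0.00281), but without the TMM factors its log2 fold change was -0.11 and its adjusted p was 0.0692. LINC00998 is SMIM30, a small membrane protein, and was at 43.2, 36.2, 38.4 and 36.4 RPKM in the controls and 42.2, 38.8, 40.01 and 41.9 RPKM in SB-treated cells. Its groups overlapped (log2 fold change 0.08, SE 0.06, limma adjusted p = 0.252), and without control replicate 1 it was called higher at 0.13 (limma adjusted p = 0.00856). LINC00116 is MTLN, or mitoregulin, a protein of the inner mitochondrial membrane linked to fatty acid oxidation. It was at 2.98, 4.17, 4.36 and 4.04 RPKM in the controls and 3.41, 3.42, 3.21 and 3.23 RPKM in SB-treated cells, where only control replicate 1 lay under the SB-treated values (log2 fold change -0.17, SE 0.08, limma adjusted p = 0.1003). Without that library it was called lower at -0.27 (limma adjusted p = 5.19e-05).

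Over all 13 LINC genes that RefSeq now classes as protein-coding, 6 were higher and 3 lower, or 46.2% and 23.1%. These shares were 42.1% and 17.5% over all LINC genes, and 33.0% and 32.6% over all genes. The log2 fold changes of the 13 ran from LINC01420 at -0.27 to LINC00341, now annotated to the nuclear envelope gene SYNE3, at 0.60. LINC00341 went from 0.713 ± 0.130 RPKM in the controls to 1.59 ± 0.0777 RPKM in SB-treated cells (SD, n = 4 each), with limma adjusted p = 1.07e-05. LINC01125, now C2orf92, went from 1.73 ± 0.203 RPKM in the controls to 3.01 ± 0.214 RPKM in SB-treated cells (SD, n = 4 each), with a log2 fold change of 0.56. LINC00094, now BRD3OS, went from 4.17 ± 0.363 RPKM in the controls to 6.43 ± 0.209 RPKM in SB-treated cells (SD, n = 4 each), with a log2 fold change of 0.53. These 3 and LINC00959, LINC00950 and LINC00282 were the 6 that rose, and LINC01420, LINC00634 and LINC00493 were the 3 that fell. In RefSeq the span of LINC01125 overlaps ACTR1B (log2 fold change 0.20, no call) and that of LINC00094 overlaps BRD3 (0.33, called higher). If reads were counted without strand, the genes of these pairs cannot be told apart where they overlap. Genes of this paragraph other than LINC01420 and LINC00493 were chosen after their values were seen.

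Of 12 LINC RNAs listed for their earlier study, mostly in tumours, 8 have a row, of which 2 rose (LINC00657 and LINC00346), 1 fell and 5 had no call by limma. Among all genes 33.0% were called higher and 32.6% lower. LINC00662 was the one of the 8 that fell. It was at 3.23, 3.68, 4.01 and 4.15 RPKM in the controls and 2.61, 2.60, 2.81 and 2.60 RPKM in SB-treated cells, with all SB-treated values below all controls (log2 fold change -0.38, SE 0.06, limma adjusted p = 3.81e-04). LINC00152 is CYTOR, a cytoplasmic RNA raised in many tumours, and was at 4.54, 6.404, 6.67 and 5.65 RPKM in the controls and 6.61, 6.42, 6.68 and 6.03 RPKM in SB-treated cells. Those values overlapped (log2 fold change 0.14, SE 0.09, limma adjusted p = 0.215), and without control replicate 1, the lowest, the log2 fold change was 0.04 (limma adjusted p = 0.502). LINC00665 was at 3.75, 4.22, 3.75 and 3.81 RPKM and 3.75, 4.38, 4.10 and 4.40 RPKM in the same order, with overlap (log2 fold change 0.08, SE 0.05, limma adjusted p = 0.208). LINC01116 was at 1.55, 1.49, 1.61 and 1.62 RPKM and 1.55, 1.54, 1.25 and 1.26 RPKM (log2 fold change -0.10, SE 0.05, limma adjusted p = 0.112), and LINC00673 was at 0.614, 0.540, 0.632 and 0.607 RPKM and 0.496, 0.624, 0.482 and 0.495 RPKM (log2 fold change -0.07, SE 0.04, limma adjusted p = 0.156). Both overlapped between the groups, and without SB-treated replicate 2 LINC00673 passed the threshold (log2 fold change -0.10, limma adjusted p = 0.0488). LINC00473, LINC00511, LINC00261 and LINC01093 have no row, and neither has the microRNA host LINC00478.

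Because LINC genes are placed by their coding neighbours, each was set beside the nearest protein-coding gene of RefSeq. The neighbour had a row for 128 of the 171, at distances from 0 (overlapping spans) to 1641126 bases, so the nearest gene is not always close. Beside the 57 LINC genes called higher, 22 neighbours were higher and 15 lower. Beside the 21 called lower, 5 neighbours were higher and 9 lower, and beside the 50 without a call, 11 were higher and 20 lower. Over all 128 pairs, 38 neighbours were higher and 44 lower, where 33.0% and 32.6% of all genes were. The log2 fold changes of LINC gene and neighbour were weakly related across the 128 pairs, with Pearson's r of 0.18 and Spearman's rho of 0.18. Pairs share the libraries, and some LINC genes share a neighbour, so the pairs are not independent and no test is given.

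Some of the largest changes had a neighbour that moved with them and others did not. Of all genes, 33.0% were called higher and 32.6% lower, so neighbours called in either direction are common for any gene. LINC00346 lies 8232 bases from the ankyrin repeat gene ANKRD10 on the same strand, and ANKRD10 rose from 9.38 ± 0.226 to 17.2 ± 0.217 RPKM (SD, n = 4 each, log2 fold change 0.81, limma adjusted p = 1.36e-07). ZBTB42, a zinc finger gene 16489 bases from LINC00638 on the same strand, rose from 1.83 ± 0.310 to 3.38 ± 0.120 RPKM (SD, n = 4 each, log2 fold change 0.64, limma adjusted p = 4.57e-05). NXT1, 1823 bases from LINC01431 on the other strand, fell from 25.4 ± 1.20 to 14.8 ± 0.476 RPKM (SD, n = 4 each, log2 fold change -0.74, limma adjusted p = 9.49e-07). In these pairs both genes passed the test in the same direction. In other pairs the directions were opposite. PAM, an enzyme that amidates peptides, starts 83319 bases from LINC00491 and rose from 13.5 ± 0.645 to 23.0 ± 0.216 RPKM (SD, n = 4 each, log2 fold change 0.73, limma adjusted p = 6.65e-07), while LINC00491 fell. MSX2, nearest to LINC01411 though 197443 bases away, fell from 19.0 ± 1.53 to 13.3 ± 0.801 RPKM (SD, n = 4 each, log2 fold change -0.48, limma adjusted p = 8.65e-05) while the LINC gene rose. KMT2E fell from 13.02 ± 0.863 to 11.5 ± 0.0252 RPKM (SD, n = 4 each, log2 fold change -0.16, limma adjusted p = 0.00994) beside the rise of LINC01004. MCF2L2, a guanine nucleotide exchange factor gene, rose from 0.398 ± 0.0271 to 0.651 ± 0.0458 RPKM (SD, n = 4 each, log2 fold change 0.24, limma adjusted p = 2.11e-04) beside the fall of LINC00888.

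Of the other neighbours of the 16 genes, apart from ZFP36L2, 3 passed the test and 3 did not. The neighbours given above and ZFP36L2 all passed it, so this remainder alone is not to be set beside the 65.6% of all genes that passed. ANKRD36C, beside LINC00342, went from 1.5003 ± 0.185 to 1.91 ± 0.0763 RPKM (SD, n = 4 each, log2 fold change 0.22, limma adjusted p = 0.00456). FAM71F2, beside LINC01000, went from 0.239 ± 0.0151 to 0.382 ± 0.0319 RPKM (SD, n = 4 each, log2 fold change 0.16, limma adjusted p = 0.00190). Both passed the test in the direction of their LINC gene, and ANKRD36C belongs to a family of near-identical copies, so its level is uncertain. ZNF703, nearest to LINC01605 at 95943 bases, fell from 84.4 ± 6.35 to 69.2 ± 4.62 RPKM (SD, n = 4 each, log2 fold change -0.28, limma adjusted p = 0.00349). ANKRD26 beside LINC00202-1 (log2 fold change -0.06), PDE2A beside LINC01537 (-0.06) and GLI4 beside LINC01604 (0.07) passed no threshold. NFAM1 beside LINC01315 and MAP1LC3B2 beside LINC00173 have no row.

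A divergent pair is a LINC gene and a coding gene on opposite strands whose starts lie within 5000 bases and face apart, an arrangement in which one promoter region often serves both directions. RefSeq places 23 LINC genes in such pairs, and 22 of the coding partners have a row. Of the 23, 11 were higher and 4 lower. Across the 22 pairs, the log2 fold changes had Pearson's r of 0.29 and Spearman's rho of 0.30, given as a description. Beside the 10 LINC genes called higher with a measured partner, 4 partners were higher, 2 lower and 4 without a call. Beside the 4 called lower, 3 partners were lower and 1 had no call. Over all 22 partners, 8 were higher and 6 lower, where 33.0% and 32.6% of all genes were.

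LINC01126 starts 605 bases from ZFP36L2, which encodes an RNA-binding protein that promotes decay of AU-rich mRNAs, and ZFP36L2 rose from 15.6 ± 0.495 to 18.4 ± 0.470 RPKM (SD, n = 4 each, log2 fold change 0.22, limma adjusted p = 4.59e-04). LINC00476 starts 286 bases from the repair gene ERCC6L2 and was at 1.34 ± 0.0619 RPKM in the controls and 1.84 ± 0.0824 RPKM in SB-treated cells (SD, n = 4 each). Both genes of this pair rose, ERCC6L2 from 3.37 ± 0.0952 to 4.61 ± 0.118 RPKM (SD, n = 4 each, log2 fold change 0.36, limma adjusted p = 1.34e-05). The pairs that fell together were LINC01481 with CNOT2, a subunit of the deadenylase complex, LINC00634 with the centromere gene CENPM, and LINC01547 with FAM207A. In these 3 pairs and in that of LINC00476 the gene spans overlap by their starts, and if reads were counted without strand they cannot be told apart there. A pair of copied genes on the X chromosome went the other way. LINC00893, now EOLA1-DT, was at 1.16 ± 0.195 RPKM in the controls and 1.91 ± 0.121 RPKM in SB-treated cells (SD, n = 4 each), while CXorf40A fell from 9.23 ± 0.767 to 6.86 ± 0.305 RPKM (SD, n = 4 each, log2 fold change -0.38, limma adjusted p = 2.96e-04). LINC00894, now EOLA2-DT, was at 2.05 ± 0.184 RPKM in the controls and 3.34 ± 0.248 RPKM in SB-treated cells (SD, n = 4 each), while CXorf40B fell from 20.2 ± 2.16 to 16.4 ± 0.547 RPKM (SD, n = 4 each, log2 fold change -0.28, limma adjusted p = 0.00569). The copies are near-identical, so the division of reads between them is uncertain. LINC00909 starts 35 bases from ZNF407 and rose by 0.60 on the log2 scale (limma adjusted p = 3.50e-06), with ZNF407 at -0.07 (limma adjusted p = 0.124). Apart from LINC01126, the pairs of this paragraph were chosen after their values were seen.

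**Figure D4:**
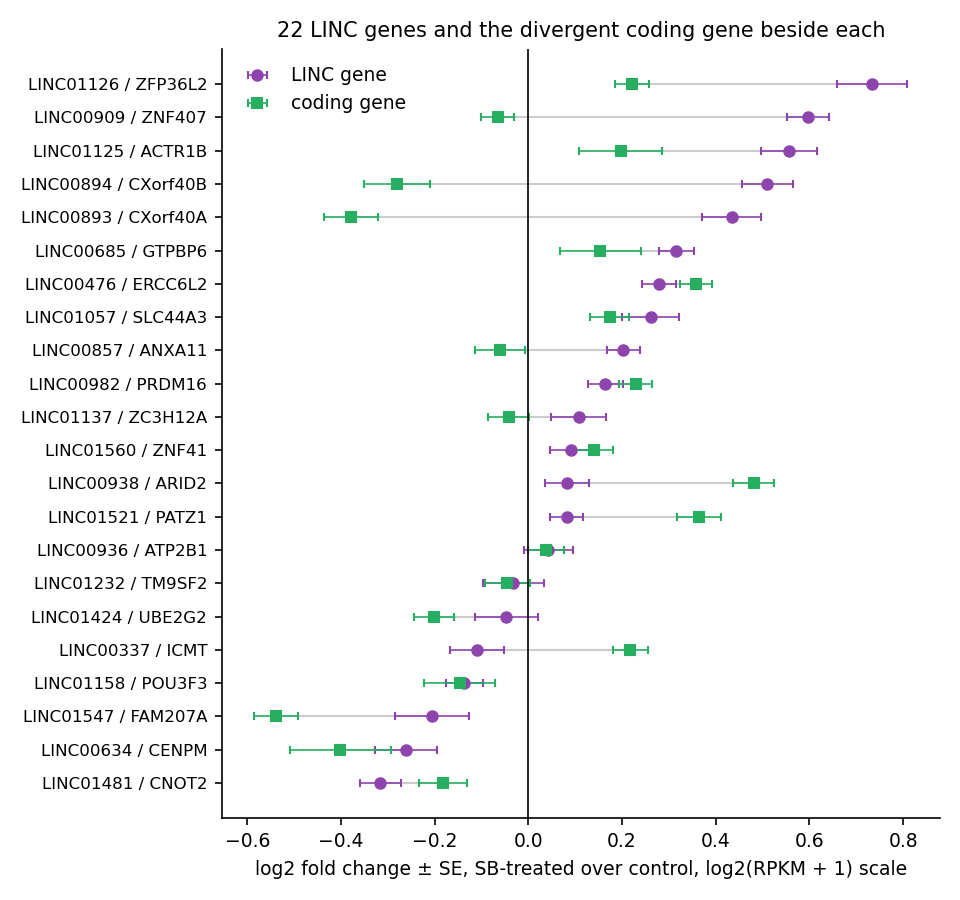
Log2 fold change with its standard error, SB-treated over control on the log2(RPKM + 1) scale, for 22 LINC genes (purple circles) and the divergent coding gene of each (green squares), ordered by the LINC gene. The grey lines join the pairs, and the longest are those of LINC00894 and LINC00893, whose coding genes lie on the other side of 0.

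Counts for other groups of noncoding genes are given beside those of the LINC genes. Antisense genes, 334 symbols that end in -AS1, had 126 higher and 61 lower with a median log2 fold change of 0.08. Their median level was 1.68 RPKM, near that of the LINC genes. The 17 SNHG genes, hosts of small nucleolar RNAs, had 1 higher and 12 lower with a median of -0.41, and a median level of 29.6 RPKM. The 11 microRNA host genes had 5 higher and 2 lower with a median of 0.15. Among all genes 33.0% were higher and 32.6% lower. Between 1 and 5 RPKM these shares were 46.2% and 19.7%, and at 5 RPKM or more 26.3% and 41.9%. No test of the differences between groups of genes was made.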

How the data were processed

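The authors sequenced total RNA from 4 control and 4 SB-treated replicates as 50-base single reads (stranded total RNA kit), mapped them to hg38 with TopHat 2.1.0, counted reads per gene with featureCounts 1.5.0 (strand setting not given in the sources used here), dropped genes that did not pass 1 CPM in 2 or more samples and scaled libraries with TMM in edgeR 3.16.5. The authors deposited 1 RPKM value per gene and library. Their mean log2 CPM per gene, also deposited, served only to settle the reads of 46 genes. The authors' fold change, p-value and FDR columns were not used, and 0 columns of sample values were left out.

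The RPKM values of 100% of the 14526 genes were turned back into whole reads (within 0.03 of a whole number), which gave the depth. TMM factors were 0.956 to 0.968 in the controls and 1.03 to 1.04 in SB-treated libraries. Groups were compared with limma (version 3.58.1, in R 4.3.3), fitted to log2(RPKM + 1) over all genes, with Benjamini-Hochberg adjustment at 0.05 and no filter on level. Fold changes on this scale understate changes at low RPKM. Single genes were also compared by an exact permutation test, two-sided. SE is the standard error of limma. Both groups are numbered 1 to 4, but no source says that equal numbers were handled together, so no block was used. The paper calls the replicates biological, and p-values measure the spread between these samples, which may be technical in part.

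Alternatives were a pseudocount of 0.1, no TMM factors, median-of-ratios scaling, a mean of at least 0.5 RPKM, voom on whole reads, a trend of the variance with intensity, a replicate block and leaving out each library. Voom with the block was added after seeing the data. Named genes were the 8 largest rises and 8 largest falls among called genes without overlap between groups, the 8 most abundant, the 4 most abundant without a call, every LINC gene of 3 lists (microproteins, earlier studied RNAs and a microRNA host), and the coding neighbours of the rises and falls. The members and lists were chosen with earlier results of these data known. Positions, classes, neighbours and promoter windows come from RefSeq GRCh38.p14, and exon numbers from GENCODE, for 159 of the 171. Divergent starts may overlap by up to 1000 bases. Motifs were searched with Python 3.11.15. The fits were tested on simulated data.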

Additional observations from a re-analysis of the deposited data

Results flagged for a closer look

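Over the 30 named LINC genes, 60 groups of 4 values were searched on the log2(RPKM + 1) scale for a highest or lowest sample whose gap to its nearest neighbour took a larger part of the group's range than the 95% critical value of Dixon's test allows. There were 7 such samples, where chance gives about 3. In 4 of the 7 the sample was control replicate 1, whose gap was 0.892 of the range for LINC01000, 0.905 for LINC00202-1, 0.855 for LINC00888 and 0.869 for LINC00504. It was the lowest control for the first pair and the highest for the other pair. Over all 171 LINC genes this library stood out in this way for 6, and the other libraries for 1 to 4 each. The others were SB-treated replicate 3 for LINC00662 (0.931), control replicate 2 for LINC00665 (0.861) and SB-treated replicate 2 for LINC00673 (0.897), each the highest of its group. Without SB-treated replicate 2, LINC00673 was called lower (log2 fold change -0.10, limma adjusted p = 0.0488). Why these libraries differ was not tested.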

How the results depend on the processing

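Counts of LINC genes at a log2 fold change of at least 0.5 changed most with the scale. Higher genes numbered 17 as reported, 36 with a pseudocount of 0.1, 42 with voom and 41 with voom and the replicate block, and lower genes 4, 9, 10 and 11 in the same order. The median log2 fold change was 0.161 with a pseudocount of 0.1, 0.1541 without TMM factors, 0.1889 with voom and 0.1845 with voom and the block, and 0.0864 to 0.0976 when a library was left out. Without TMM factors 16 LINC genes, in place of 26, lay wholly below the controls. The counts of LINC genes called ran from 64 to 83 higher and 24 to 31 lower when 1 library was left out, the highest of both without control replicate 1. Of the 72 higher and 30 lower genes, voom kept 66 and 29, and the scaling without TMM factors kept 72 and 21. With the replicate block alone 72 were higher and 31 lower. The numbers are not taken to pair the samples: control and SB-treated replicates of 1 number correlated at 0.38, 0.33, 0.17 and -0.16 in their deviations, and 2 of the 4 controls correlated best with an SB-treated replicate of another number. Of the single genes, 1 value changed sign, that of LINC00467, which had no call (-0.0264 to 0.1095 when a library was left out), 1 call was lost (LINC00493 without TMM factors) and 12 values without a call passed under some alternative, among 480 compared. LINC00506 passed with the block (log2 fold change 0.14, limma adjusted p = 0.0292). Depth limits the lowest genes, at 24.6 reads per library.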

Other observations

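Low LINC RNAs whose change is shrunk on the log2(RPKM + 1) scale were large on the scale of voom. LINC00622 was at 0.201 ± 0.0689 RPKM in the controls and 0.771 ± 0.0970 RPKM in SB-treated cells (SD, n = 4 each), from 12.8 and 51.3 reads per library on average, and its log2 fold change was 0.56 with limma and 1.95 with voom. LINC01164 was at 0.0771 ± 0.0421 RPKM and 0.276 ± 0.0388 RPKM (SD, n = 4 each), with log2 fold changes of 0.25 and 1.90. LINC00685 was at 0.164 ± 0.0486 RPKM and 0.449 ± 0.0130 RPKM (SD, n = 4 each), with 0.32 and 1.501. All SB-treated values of these 3 lay above all control values, and the genes were chosen after their values were seen. The mean control reads of LINC00622 and LINC01164 are under 1 CPM at this depth, so both had a row through the SB-treated libraries. Their rises and their lack of overlap are therefore not independent of that filter.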
